A study of Mus musculus with 21 samples.

Results

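Collagens are the main proteins of the extracellular matrix, and each molecule is a rope of 3 chains, which come from 1 gene or from several. The collagen genes were taken as every row of the expression table whose symbol is Col, a number, a and a number, which gave 40 genes among 20872 rows. By the structures their chains build, 11 are fibrillar, 6 belong to the network of basement membranes, 8 to the FACIT group that sits on the surface of fibrils, 4 to the beaded filaments of type VI, 3 to short-chain networks, 4 to the transmembrane group, 2 to the multiplexins and 2 to none of these (Col7a1 and Col28a1).

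In the aortic valve, fibrils of types I and III give the leaflet its tensile strength on the side facing the aorta. Type IV collagen lies under the endothelium, and type VI links fibrils to cells. Valve interstitial cells, which resemble fibroblasts, make most of this matrix, and disorder of its fibrils is a known feature of diseased valves.

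RNA of mouse aortic valves was sequenced in 21 libraries of 5 groups. All mice were Terc-/- of generation 2, so they lacked the RNA template of telomerase, the WT group included. The groups were N1het stenosis XCT790 (3 libraries) and N1het stenosis (3), both from narrowed valves of mice heterozygous for Notch1, then N1het healthy XCT790 (5) and N1het healthy (6) from healthy valves of the same genotype, and WT (4) with both Notch1 alleles intact and healthy valves. XCT790, an inverse agonist of the nuclear receptor ERRα, was given by intraperitoneal injection at 5 mg/kg per day for 4 weeks from 4 weeks of age, and the other groups received solvent. In 6 libraries a second label field contradicts the agent in the title. By that field N1het stenosis 1, 2 and 3 had XCT790, so all 6 stenotic valves did, and N1het healthy XCT790 1, 2 and 3 had solvent. Among the healthy N1het libraries only N1het healthy XCT790 4 and 5 had XCT790 by that field. If it is right, stenosis can hardly be told apart from XCT790 where stenotic and healthy N1het valves are compared. Groups follow the titles here. The labels do not say that libraries are separate animals, so every p below measures the spread between samples.

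Values are FPKM, the fragments counted on a gene scaled by its length and by the depth of the library. The libraries held 8417033 to 27265905 reads, and 0.446% to 1.7% of the reads lay on the 40 collagen genes. The 6 deepest libraries, with at least 17706464 reads where the other 15 have at most 15546824, are named the deep libraries in what follows. They hold 1 N1het stenosis XCT790, 0 N1het stenosis, 2 N1het healthy XCT790, 2 N1het healthy and 1 WT library. Collagen reads made up 0.634% to 1.7% in the deep libraries and 0.446% to 0.984% in the other 15, so the main differences are also given within those 15. The deep libraries also held fewer mitochondrial reads (0.0581% to 0.521%, against 0.851% to 8.4% in the other 15), and their summed heart muscle markers reached 292 FPKM, against 4832 FPKM in the other 15. The test used below was also fitted with the heart muscle marker level or with the deep libraries as a covariate. Beyond those fits, the part of the deep libraries in the collagen values was not tested. Markers of fibroblasts and valve interstitial cells were all listed (8 of 8, none at 0 in every library of a group), with a summed level of 5332 to 11669 FPKM, as were 7 of 7 endothelial markers at 120.1 to 584 FPKM. The summed 12 heart muscle markers ranged from 36.1 to 4832 FPKM over the libraries. The summed 6 smooth muscle markers were at 2000.2 FPKM in N1het stenosis XCT790 1, 1688 in N1het healthy XCT790 2 and 3428 in WT 4, and at 78.5 to 777 in the other 18 libraries.

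Fibrillar chains held the largest share of the summed collagen FPKM. Col1a1 (208 FPKM on average over 21 libraries), Col3a1 (134 FPKM) and Col1a2 (112 FPKM) together held 38.7% to 55.8% of the summed collagen FPKM of a library, with a median of 49.5%. By class, the fibrillar genes held a median of 59.0%, the type VI and basement membrane genes 11.4% each, the FACIT genes 6.32%, the multiplexins 5.96%, the short-chain genes 3.27%, the transmembrane genes 1.2% and Col7a1 with Col28a1 0.0216%. On this per-length scale Col1a1 lay at the 98.7th percentile of all rows. A mean FPKM of 1 was required for testing. It left 31 genes in and 9 out, and the genes nearest to it were Col20a1 (1.05 FPKM) inside and Col11a1 (0.919 FPKM) outside. The other 8 untested genes were Col13a1 (0.469), Col25a1 (0.282), Col28a1 (0.225), Col17a1 (0.206), Col19a1 (0.202), Col7a1 (0.200), Col24a1 (0.111) and Col9a2 (0.0959 FPKM).

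The sources do not state a strand setting, so reads of overlapping genes on opposite strands cannot be told apart. In GENCODE M21 the exons of Col4a3 share 563 bases, those of Col9a3 234 and those of Col5a1 99 and 113 with genes on the other strand. Col6a6 shares 63, Col4a2 43, Col10a1 18 and Col15a1 14 bases with such genes, and Col4a1 and Col4a2 share 22 with each other. N1het healthy 4, the deepest library, was the highest of the 21 in Col1a1, Col3a1, Col1a2, Col6a2, Col5a1, Col15a1, Col5a2, Col6a3, Col11a2, Col8a2 and Col9a1.

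**Figure D1:**
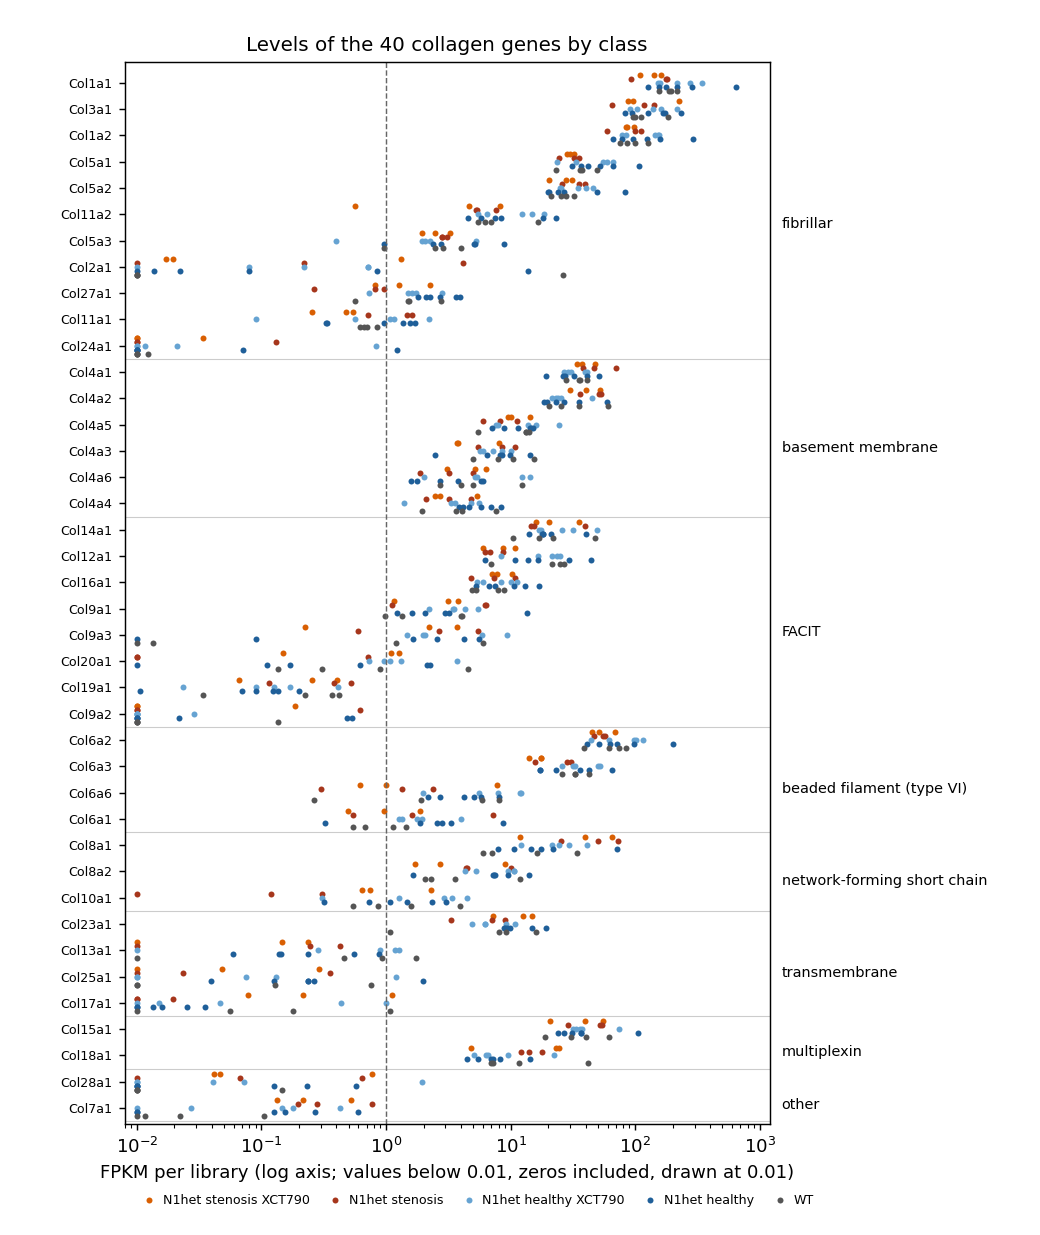
FPKM of each of the 40 collagen genes (rows, grouped by class) in each of the 21 libraries (points, coloured by group), on a log axis with a dashed line at 1 FPKM. Col1a1, Col3a1 and Col1a2 lie at or above 59.3 FPKM in every library, while Col9a2 is at 0 in 14 libraries and Col24a1 in 13.

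No collagen gene passed the test in any contrast. With limma on log2(FPKM + 1) and adjustment over 14966 genes, 0 of 31 were called for stenotic against healthy N1het valves over both agents, where 0.374% of all tested genes were called. In that contrast 10 of 31 had an unadjusted p under 0.05, 2 higher and 8 lower, beside 11.5% of all genes, 6.01% higher and 5.49% lower. The same test gave 0 called collagens and 5 at unadjusted p for N1het stenosis against N1het healthy (2 higher and 3 lower), beside 0.0334% called and 9.6% at unadjusted p (4.59% higher, 5.01% lower) of all genes. For N1het stenosis against WT it gave 0 and 2, beside 0.0334% and 10.4%. For N1het healthy against WT, N1het healthy XCT790 against N1het healthy, N1het stenosis XCT790 against N1het stenosis and the interaction of XCT790 with stenosis it gave 0 and 0 collagens, beside 0% of all genes called in each and 7.42%, 2.65%, 3.35% and 2.98% at unadjusted p. Limma voom on recovered reads also called 0 collagens in each contrast, with 12, 5, 4, 0, 0, 2 and 1 at unadjusted p in the order of the contrasts above. Of all 14966 genes voom called 88, 0, 2, 0, 0, 0 and 0 in that order. It had 1859, 1352, 1538, 1360, 457, 388 and 447 of them at unadjusted p.

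The differences between stenotic and healthy N1het valves are given by class, with no test between classes. Over both agents the median log2 difference of the 31 genes was -0.27, with 25 negative, beside 0.00 over all genes. The class medians were -0.63 for type VI (4 genes), -0.54 for the short chains (3), -0.43 for the fibrillar genes (9), -0.21 for basement membrane genes (6), -0.16 for FACIT genes (6) and 0.40 for multiplexins (2). In the libraries other than the deep ones (5 stenotic and 7 healthy N1het) they were -0.36 for type VI, -0.53 for the short chains, -0.08 for the fibrillar genes, 0.12 for basement membrane genes, -0.06 for FACIT genes and 0.30 for multiplexins. The direction of 8 of the 31 genes turned there, those of Col2a1, Col3a1, Col5a2, Col4a3, Col4a6, Col9a1, Col15a1 and Col16a1. The median of all 31 was -0.07 there, with 0 collagens and 0 of all genes called. At unadjusted p there were 2 collagens, Col4a2 higher and Col11a2 lower. Of all 14966 genes 1086 were at unadjusted p there, 554 higher and 532 lower. In all libraries the 2 collagens higher at unadjusted p were Col4a1 and Col4a2, and the 8 lower were Col1a1, Col5a1, Col11a2, Col27a1, Col6a3, Col6a6, Col10a1 and Col12a1. Leaving out N1het stenosis XCT790 1 brought the 10 genes at unadjusted p to 6, beside 1773 of all 14966 genes in that fit.

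**Figure D2:**
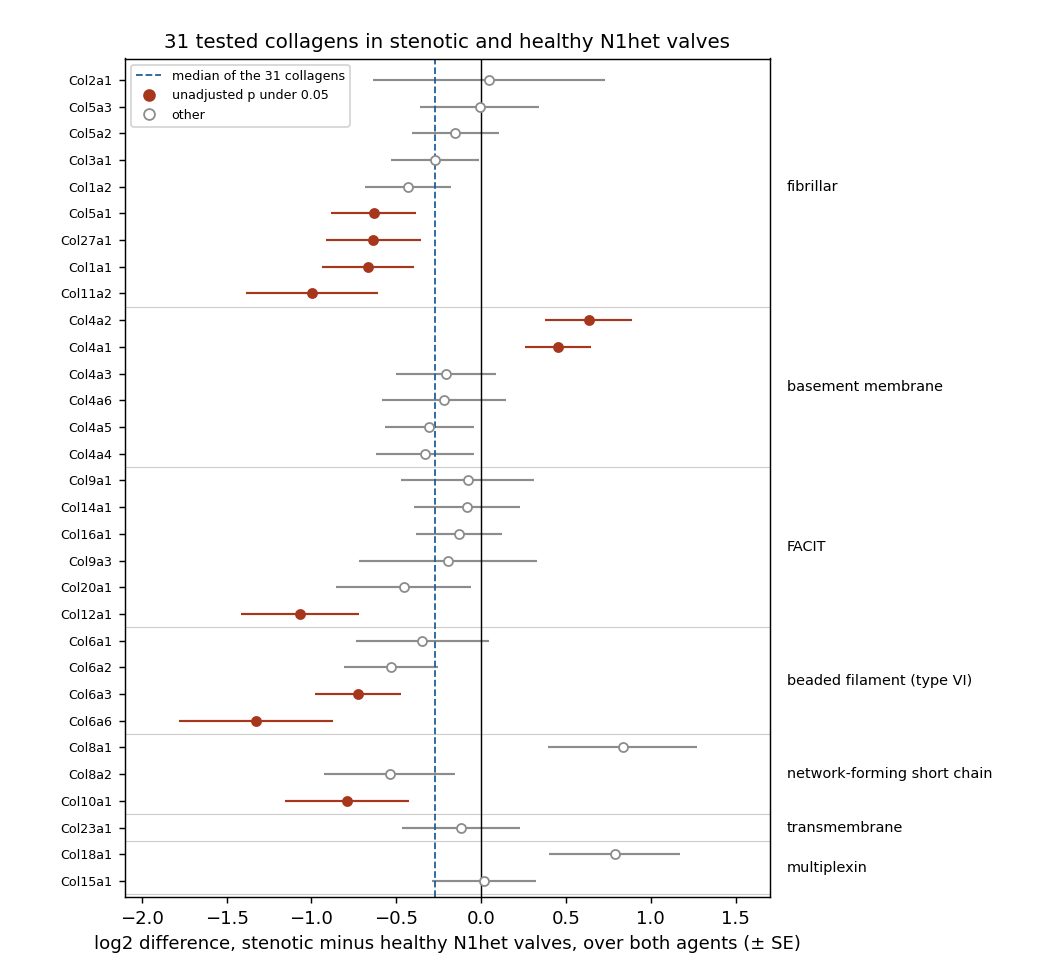
Log2 difference with its SE (points and bars) of the 31 tested collagens between 6 stenotic and 11 healthy N1het libraries over both agents, grouped by class, with filled points at unadjusted p under 0.05 and a dashed line at the median of the 31 genes, -0.27. Type VI genes all lie below 0, while Col4a1, Col4a2, Col8a1 and Col18a1 lie between 0.45 and 0.83 above it.

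For N1het stenosis against N1het healthy alone the median was -0.31 (11 positive and 20 negative), beside -0.04 over all genes, and it was -0.04 without the deep libraries. The direction of 5 of the 31 genes turned without them, those of Col2a1, Col4a6, Col6a1, Col6a3 and Col8a2. In all libraries the 5 genes at unadjusted p were Col27a1, Col12a1 and Col5a1 (lower) and Col4a1 and Col8a1 (higher). Their number became 1 when N1het healthy 1 was left out, 2 for N1het stenosis 2 and 3 for N1het stenosis 3. Of all 14966 genes 1250, 1307 and 895 were at unadjusted p in these fits. In bulk valves, fewer cells of a type and less RNA per cell cannot be told apart. The summed fibroblast markers stood at 5332 to 7603 FPKM in the 6 stenotic libraries and 7543 to 11669 FPKM in the 11 healthy N1het libraries. Dcn, itself a called gene, and Vim held most of this sum, which without Dcn was 2732 to 4100.02 FPKM in stenotic and 3713 to 6297 FPKM in healthy N1het libraries. Of the 8 markers, Thy1 had a higher mean in stenotic valves (29.02 ± 11.3 FPKM, SD, n = 6) than in healthy N1het valves (21.9 ± 8.43 FPKM, n = 11), and the other 7 had a lower mean in stenotic valves. The 9 macrophage markers stood at 1633 to 6833 FPKM in stenotic and 849.9 to 3130.3 FPKM in healthy N1het libraries. None of either list was at 0 throughout a group, and their part in the collagen differences was not tested.

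N1het healthy against WT had a median log2 difference of 0.28 (20 positive and 11 negative), beside 0.09 over all genes, and of -0.13 without the deep libraries, so its direction rests on them. N1het stenosis against WT had a median of -0.15 (12 positive and 19 negative), beside 0.06 over all genes. The XCT790 contrast had a median of 0.07 in healthy and -0.02 in stenotic valves, beside 0.03 and 0.09 over all genes. With groups by the agent label the median in healthy valves was -0.15, so its direction rests on which label is followed. In the fit by titles the median interaction was -0.07, beside 0.05.

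The fibrillar collagens carry the tensile load. Col1a1, which encodes the α1 chain of type I collagen (ENSMUSG00000001506), stood at 109.8, 159.9 and 142 FPKM in N1het stenosis XCT790, 92.7, 178 and 181 in N1het stenosis, 345, 276, 152, 218 and 157 in N1het healthy XCT790, 127 to 641 with a median of 197 in N1het healthy, and 196, 187, 154 and 216 in WT. The stenotic libraries overlapped the healthy ones, and N1het healthy 4 alone reached 641 FPKM. Over both agents stenotic valves averaged 144 ± 36.3 FPKM (SD, n = 6) and healthy N1het valves 249.98 ± 146 FPKM (n = 11). The log2 difference was -0.67 ± 0.27 (SE; limma adjusted p = 0.322). Without the deep libraries it was -0.33.

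Col1a2, the α2 chain of the same trimer, had 97.3, 84.3 and 85.99 FPKM in N1het stenosis XCT790, 59.3, 111 and 99.4 in N1het stenosis, 152, 155, 84.3, 145 and 79.1 in N1het healthy XCT790, 66.6 to 289.9 with a median of 111 in N1het healthy, and 127, 75.3, 85.7 and 99.7 in WT. Its groups overlapped throughout, and the log2 difference over both agents was -0.43 ± 0.26 (SE; limma adjusted p = 0.545), and -0.08 without the deep libraries. Col3a1, the only chain of type III collagen, had 224, 87.3 and 96.9 FPKM in N1het stenosis XCT790, 65.3, 141 and 118 in N1het stenosis, 138, 161, 103, 218 and 91.7 in N1het healthy XCT790, 82.5 to 234 with a median of 147 in N1het healthy, and 99.1, 111, 96.9 and 184 in WT. Its log2 difference was -0.27 ± 0.26 (limma adjusted p = 0.753) and 0.03 without the deep libraries, so its direction rests on the deep libraries.

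Type V collagen starts and limits the growth of type I fibrils. Its α1 chain Col5a1 had 32.3, 28.6 and 30.2 FPKM in N1het stenosis XCT790, 24.7, 32.4 and 35.4 in N1het stenosis, 59.2, 55.6, 33.7, 65.9 and 23.6 in N1het healthy XCT790, 31.3 to 107 with a median of 47.2 in N1het healthy, and 49.4, 23.1, 36.01 and 37.4 in WT. The 6 stenotic values lay within 24.7 to 35.4 FPKM, inside the range of the healthy N1het libraries. The log2 difference was -0.63 ± 0.25 (SE; limma adjusted p = 0.312) over both agents and -0.73 ± 0.35 (limma adjusted p = 0.516) for N1het stenosis against N1het healthy, and -0.32 and -0.38 without the deep libraries. For N1het healthy against WT it was 0.53 ± 0.32 (limma adjusted p = 0.731). Its partner Col5a2 was at -0.15 ± 0.25 over both agents (limma adjusted p = 0.879) and at 0.15 without the deep libraries, so its direction rests on them. For N1het stenosis against N1het healthy it was at 0.04, and at 0.53 without the deep libraries. Col5a2 had 20.3, 27.96 and 31.1 FPKM in N1het stenosis XCT790, 25.8, 35.5 and 39.5 in N1het stenosis, 45.5, 35.04, 25.5, 40.2 and 24.99 in N1het healthy XCT790, 19.9 to 82.1 with a median of 25.5 in N1het healthy, and 25.3, 32.3, 27.9 and 21.01 in WT, with overlapping groups.

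Col11a2 encodes a chain of type XI collagen, the fibril-starting counterpart of type V in cartilage. It was at 0.562, 8.29 and 4.63 FPKM in N1het stenosis XCT790, 7.697, 5.35 and 5.32 in N1het stenosis, 18.7, 12.4, 6.45, 14.8 and 5.45 in N1het healthy XCT790, 4.51 to 23.3 with a median of 7.96 in N1het healthy, and 16.6, 5.47, 6.98 and 6.21 in WT. The lowest value was that of N1het stenosis XCT790 1, and the 3 highest healthy N1het values came from deep libraries. The log2 difference over both agents was -0.995 ± 0.389 (SE; limma adjusted p = 0.306) and -0.85 without the deep libraries.

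Col27a1, a fibrillar collagen of developing cartilage, had 1.27, 2.27 and 0.817 FPKM in N1het stenosis XCT790, 0.264, 0.9703 and 0.812 in N1het stenosis, 2.82, 1.603, 1.74, 1.51 and 0.726 in N1het healthy XCT790, 1.81 to 3.93 with a median of 2.47 in N1het healthy, and 1.495, 0.564, 2.78 and 1.54 in WT. For N1het stenosis against N1het healthy the log2 difference was -1.15 ± 0.39 (SE; limma adjusted p = 0.315), the smallest p of a collagen in that contrast, and -1.24 without the deep libraries. N1het stenosis lay below N1het healthy without overlap, which 2 of 31 collagens did, Col27a1 and Col10a1, and 5.46% of all tested genes had groups without overlap there. For N1het healthy against WT the log2 difference of Col27a1 was 0.56 ± 0.36 (limma adjusted p = 0.739). The XCT790 difference was -0.50 ± 0.33 in healthy and 0.53 ± 0.45 in stenotic valves, with an interaction of 1.02 ± 0.56 (limma adjusted p = 1).

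Col2a1, the fibrillar collagen of cartilage, was high in few libraries. It reached 1.31 FPKM in N1het stenosis XCT790 3, 4.15 in N1het stenosis 3, 13.7 in N1het healthy 6 and 26.1 in WT 4, stayed at or below 0.852 in the other libraries, and was at 0 in 6. Its log2 difference over both agents was 0.05 ± 0.68 (SE; limma adjusted p = 0.992). Of 7 cartilage-type markers 6 were listed, with a summed level of 117 to 226 FPKM in the 6 stenotic, 248 to 486 in the 11 healthy N1het and 139 to 213 in the WT libraries. Acan, the main proteoglycan of cartilage, stayed at or below 2.12 FPKM in every library, Matn1 was at 0 in all but 2 libraries, and their part in the collagen values was not tested.

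The basement membrane class held the only collagens higher at unadjusted p over both agents, Col4a1 and Col4a2. The α1 and α2 chains of type IV collagen that they encode form the common trimer of vessel and endothelial basement membranes, and their genes are read in opposite directions from adjacent starts. In RefSeq's GRCm38.p6 the start sites listed are on chromosome 8 at base 11312826 on the minus strand (Col4a1) and base 11312805 on the plus strand (Col4a2), 21 bases apart, and the exons annotated in GENCODE M21 share 22 bases on opposite strands. Col4a1 had 47.7, 37.2 and 34.4 FPKM in N1het stenosis XCT790, 46.99, 70.2 and 38.4 in N1het stenosis, 30.5, 39.3, 29.1, 41.1 and 26.8 in N1het healthy XCT790, 19.3 to 51.6 with a median of 30.03 in N1het healthy, and 41.3, 28.01, 35.6 and 36.2 in WT. The stenotic values lay in the upper part of the healthy N1het range without leaving it, save N1het stenosis 2 at 70.2 FPKM. The log2 difference was 0.45 ± 0.19 over both agents (SE; limma adjusted p = 0.352) and 0.66 ± 0.27 for N1het stenosis against N1het healthy (limma adjusted p = 0.424).

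Col4a2 had 29.8, 52.2 and 40.1 FPKM in N1het stenosis XCT790, 35.95, 51.7 and 52.7 in N1het stenosis, 25.2, 44.7, 23.8, 22.98 and 21.4 in N1het healthy XCT790, 18.4 to 59.2 with a median of 24.8 in N1het healthy, and 25.5, 20.2, 35.4 and 60.7 in WT. Its log2 difference was 0.63 ± 0.26 over both agents (SE; limma adjusted p = 0.32) and 0.71 ± 0.36 for N1het stenosis against N1het healthy (limma adjusted p = 0.543). Without the deep libraries the values over both agents were 0.46 for Col4a1 and 0.77 for Col4a2, as large as in all libraries. The 7 endothelial markers summed to 204 to 570.4 FPKM in stenotic and 120.1 to 584 in healthy N1het libraries, and their part was not tested.

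The other 4 type IV chains, which replace α1 and α2 in specialised membranes such as that of the kidney filter, were lower in level. Col4a5 averaged 11.8, Col4a3 7.95, Col4a6 5.22 and Col4a4 4.30 FPKM over 21 libraries, and their log2 differences over both agents ran from -0.33 to -0.21. In the libraries other than the deep ones Col4a3 was at 0.09 and Col4a6 at 0.14, so the direction of these chains rests on the deep libraries, while Col4a5 (-0.12) and Col4a4 (-0.21) stayed negative. For N1het stenosis against N1het healthy Col4a3 was at 0.09 in all libraries. Col4a6 was the collagen with the smallest p for XCT790 in healthy valves, at 6.403, 3.07 and 5.22 FPKM in N1het stenosis XCT790, 1.87, 4.95 and 3.19 in N1het stenosis, 5.38, 14.3, 5.17, 12.5 and 2.001 in N1het healthy XCT790, 1.58 to 5.95 with a median of 3.23 in N1het healthy, and 12.4, 4.03, 4.96 and 2.697 in WT, a log2 difference of 0.82 ± 0.44 (SE; limma adjusted p = 1) between the groups of healthy N1het valves. Col4a4 had 5.33, 2.71 and 2.49 FPKM in N1het stenosis XCT790, 3.18, 4.84 and 2.07 in N1het stenosis, 4.78, 5.61, 3.56, 1.399 and 3.35 in N1het healthy XCT790, 3.87 to 8.37 with a median of 5.22 in N1het healthy, and 7.57, 1.95, 4.06 and 3.67 in WT, and stood at -0.52 ± 0.34 in that contrast. Col4a3 had 8.103, 3.78 and 3.73 FPKM in N1het stenosis XCT790, 8.61, 10.8 and 5.51 in N1het stenosis, 10.1, 8.58, 7.17, 5.96 and 5.699 in N1het healthy XCT790, 2.47 to 14.3 with a median of 8.37 in N1het healthy, and 15.5, 5.02, 7.92 and 10.5 in WT, and stood at -0.61 ± 0.47 for XCT790 in stenotic valves (limma adjusted p = 1 for both).

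**Figure D3:**
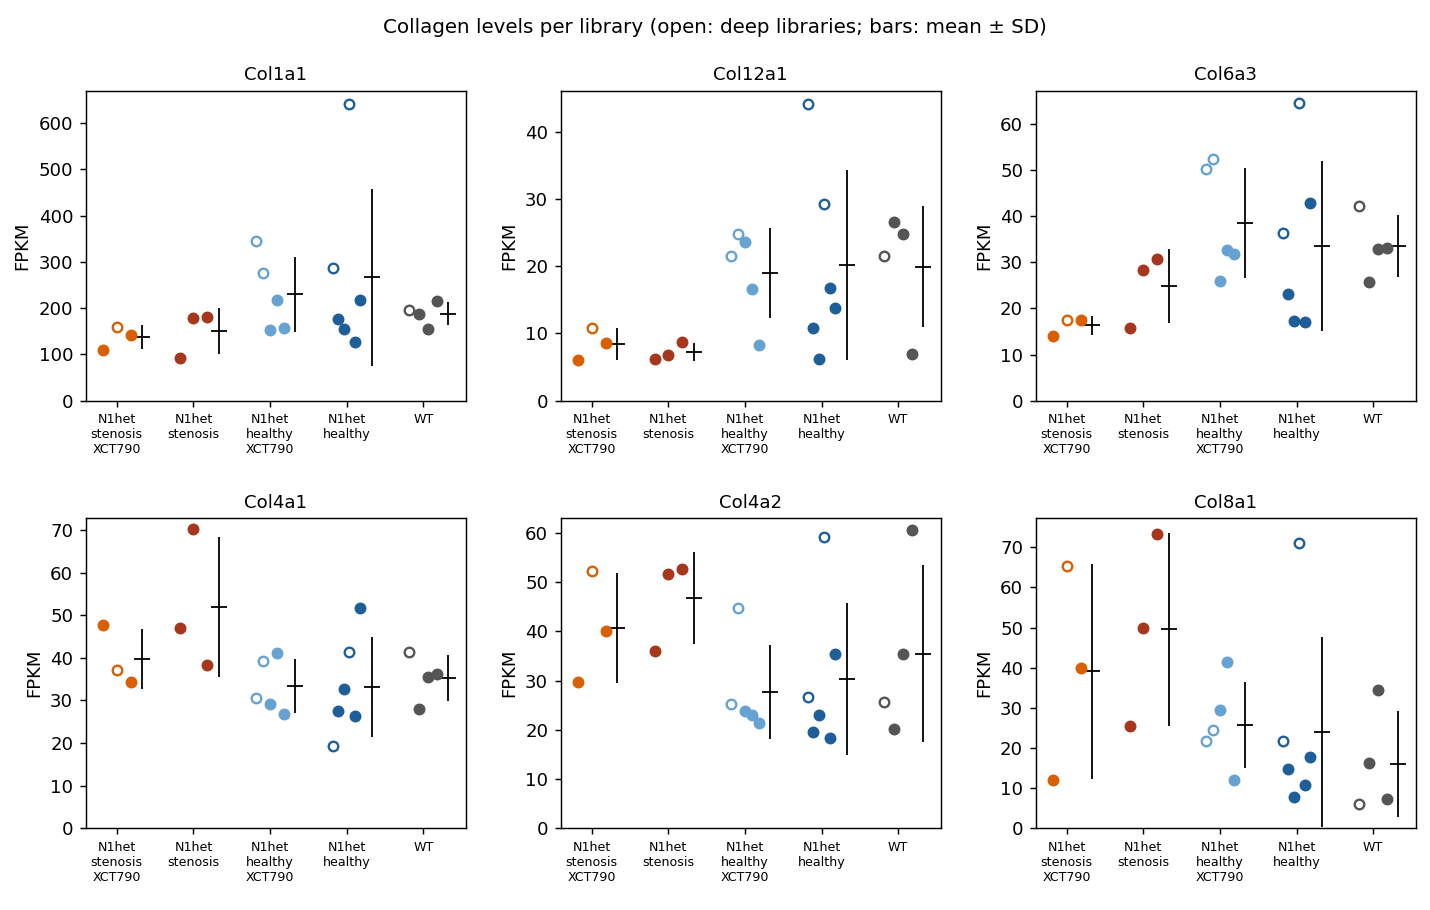
FPKM of 6 collagens in each library (points, open for the deep libraries) with the mean ± SD of each of the 5 groups. Stenotic libraries hold the low end of Col12a1 (6.01 to 10.8 FPKM) and the upper part of Col4a2 (29.8 to 52.7 FPKM).

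FACIT collagens decorate fibrils and adjust their spacing. Col12a1, which encodes the chain of type XII collagen, had the smallest p of all collagens over both agents. It stood at 6.01, 10.8 and 8.62 FPKM in N1het stenosis XCT790, 6.22, 6.81 and 8.77 in N1het stenosis, 21.6, 24.8, 23.6, 16.7 and 8.35 in N1het healthy XCT790, 6.25 to 44.1 with a median of 15.3 in N1het healthy, and 21.4, 26.6, 24.8 and 6.96 in WT. All 6 stenotic libraries were at or below 10.8 FPKM, and N1het healthy XCT790 5, N1het healthy 3 and WT 4 were below that too, with N1het healthy 2 level with it. The log2 difference was -1.07 ± 0.35 over both agents (SE; limma adjusted p = 0.206), -1.11 ± 0.48 for N1het stenosis against N1het healthy (limma adjusted p = 0.457) and -1.20 ± 0.52 against WT (limma adjusted p = 0.429). Without the deep libraries it was -0.77 over both agents and -0.58 for N1het stenosis against N1het healthy. The related Col14a1, a FACIT of dense connective tissue, had 35.7, 20.2 and 15.95 FPKM in N1het stenosis XCT790, 15.4, 39.7 and 14.5 in N1het stenosis, 25.99, 31.5, 16.8, 49.3 and 17.6 in N1het healthy XCT790, 13.99 to 39.96 with a median of 18.1 in N1het healthy, and 10.5, 21.9, 17.01 and 47.4 in WT. Its groups overlapped throughout, with a log2 difference over both agents of -0.08 ± 0.31 (limma adjusted p = 0.955).

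The other tested FACIT genes had no unadjusted p under 0.05 over both agents. Col16a1 averaged 8.42 FPKM over 21 libraries with a log2 difference of -0.13 ± 0.25 (SE; limma adjusted p = 0.898), Col9a1 3.60 FPKM with -0.08 ± 0.39 (limma adjusted p = 0.967), Col9a3 2.71 FPKM with -0.19 ± 0.52 (limma adjusted p = 0.931) and Col20a1 1.05 FPKM with -0.46 ± 0.40 (limma adjusted p = 0.716). Among the fibrillar genes the third type V chain, Col5a3, averaged 3.04 FPKM with -0.01 ± 0.35 (limma adjusted p = 0.996).

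Type VI collagen forms beaded filaments around cells from an α1, an α2 and a larger α3 chain. All 4 type VI genes were negative over both agents, also without the deep libraries, where Col6a1 was at -0.07. For N1het stenosis against N1het healthy their median was -0.41 in all libraries and -0.02 without the deep ones. In the second case Col6a1 was at 0.11, Col6a3 at 0.03, Col6a2 at -0.07 and Col6a6 at -1.02. Col6a3, the α3 chain, had 14.03, 17.4 and 17.6 FPKM in N1het stenosis XCT790, 15.7, 28.3 and 30.6 in N1het stenosis, 50.2, 52.3, 26.003, 32.6 and 31.8 in N1het healthy XCT790, 17.1 to 64.6 with a median of 29.8 in N1het healthy, and 42.3, 25.8, 32.8 and 33.2 in WT. Stenotic and healthy N1het libraries overlapped between 17.1 and 30.6 FPKM. The log2 difference was -0.73 ± 0.26 over both agents (SE; limma adjusted p = 0.25), and -0.43 without the deep libraries. For Col6a3 the interaction of XCT790 with stenosis was -0.84 ± 0.51 (limma adjusted p = 1). Col6a2, the α2 chain, had 50.8, 69.1 and 45.3 FPKM in N1het stenosis XCT790, 46.3, 54.9 and 57.5 in N1het stenosis, 102, 98.1, 44.2, 116 and 61.2 in N1het healthy XCT790, 41.1 to 201 with a median of 66.9 in N1het healthy, and 84.3, 73.7, 38.8 and 61.7 in WT. The groups overlapped, with a log2 difference over both agents of -0.53 ± 0.28 (SE; limma adjusted p = 0.48).

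Col6a6, a chain related to α3, had 7.74, 1.01 and 0.622 FPKM in N1het stenosis XCT790, 0.298, 2.37 and 1.34 in N1het stenosis, 12.2, 11.8, 1.97, 7.95 and 5.56 in N1het healthy XCT790, 2.18 to 8.004 with a median of 4.63 in N1het healthy, and 8.13, 1.92, 0.264 and 5.92 in WT. Its log2 difference over both agents was -1.33 ± 0.45 (SE; limma adjusted p = 0.237), and -0.79 without the deep libraries. Col6a1 is counted over a row of only 413 bases, although its exons in GENCODE M21 cover 4380, and it drew 2 to 67 reads per library. Its level, 1.87, 0.957 and 0.495 FPKM in N1het stenosis XCT790, 1.602, 0.546 and 7.201 in N1het stenosis, 1.95, 3.997, 1.77, 1.34 and 1.26 in N1het healthy XCT790, 0.326 to 8.69 with a median of 2.701 in N1het healthy, and 0.675, 1.14, 0.542 and 1.44 in WT, may miss part of the transcript, and the type VI share of collagen FPKM given above was a median of 11.1% without it. It had the smallest p for N1het healthy against WT, with 3.27 ± 2.85 FPKM (SD, n = 6) in N1het healthy and 0.949 ± 0.415 (n = 4) in WT, a log2 difference of 0.91 ± 0.50 (limma adjusted p = 0.708).

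Type VIII and type X collagens are short chains that build hexagonal sheets. Col8a1 (ENSMUSG00000068196), a chain of the sheet under some endothelia such as that of the cornea, had 11.9, 65.4 and 39.9 FPKM in N1het stenosis XCT790, 25.4, 49.9 and 73.4 in N1het stenosis, 21.7, 24.5, 29.3, 41.3 and 12.04 in N1het healthy XCT790, 7.87 to 71.1 with a median of 16.1 in N1het healthy, and 6.02, 16.3, 34.4 and 7.14 in WT. Among N1het healthy libraries the 71.1 FPKM of number 4 stood far above the others, which reached 21.7 FPKM. The log2 difference was 1.28 ± 0.61 for N1het stenosis against N1het healthy (SE; limma adjusted p = 0.516), 1.76 ± 0.66 against WT (limma adjusted p = 0.368) and 0.83 ± 0.44 over both agents (limma adjusted p = 0.484). Without the deep libraries it was 1.82 against N1het healthy and 0.83 over both agents. Col8a2, the other type VIII chain, had 1.705, 9.03 and 2.73 FPKM in N1het stenosis XCT790, 4.496, 4.37 and 10.2 in N1het stenosis, 10.6, 9.49, 5.27, 10.6 and 4.29 in N1het healthy XCT790, 1.65 to 14.2 with a median of 7.43 in N1het healthy, and 11.8, 2.29, 3.57 and 2.06 in WT. It leaned the other way from Col8a1, at -0.54 ± 0.39 over both agents (SE; limma adjusted p = 0.644).

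Col10a1, the collagen of hypertrophic cartilage, had 0.642, 2.29 and 0.739 FPKM in N1het stenosis XCT790, 0, 0.1199 and 0.304 in N1het stenosis, 2.93, 4.47, 3.41, 0.309 and 1.27 in N1het healthy XCT790, 0.319 to 3.02 with a median of 1.27 in N1het healthy, and 3.92, 0.5404, 0.857 and 1.59 in WT. The 3 N1het stenosis values came from 0, 5 and 13 reads. N1het stenosis lay below N1het stenosis XCT790, N1het healthy and WT without overlap, though only narrowly below N1het healthy 3 (0.319 FPKM). Against N1het healthy the log2 difference was -1.03 ± 0.51 (SE; limma adjusted p = 0.539), against WT -1.11 ± 0.55 (limma adjusted p = 0.492), and for N1het stenosis XCT790 against N1het stenosis 0.90 ± 0.59 (limma adjusted p = 1). Groups without overlap were seen in 1 of 31 collagens, Col10a1, against WT and for XCT790 in stenosis, beside 8.61% and 8.75% of all tested genes. In the authors' deposited table, for which the sources used here give no test, Col10a1 is marked as changed for N1het stenosis against WT and against N1het healthy, Col27a1 for the second (marks stand on 281 and 262 of 20872 rows), and 0 collagens in the other 3 comparisons. Over both agents 0 of 31 collagens had groups without overlap, beside 0.147% of all genes.

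The multiplexins Col15a1 and Col18a1 carry sugar chains in and near basement membranes, and the end of Col18a1 is released as endostatin. Col15a1 had 20.8, 55.5 and 39.8 FPKM in N1het stenosis XCT790, 28.7, 54.3 and 52.4 in N1het stenosis, 36.3, 33.4, 37.3, 73.9 and 31.6 in N1het healthy XCT790, 24.04 to 105 with a median of 33.999 in N1het healthy, and 30.5, 18.9, 40.02 and 61.6 in WT. Its groups overlapped throughout, and the log2 difference was 0.02 ± 0.30 over both agents (limma adjusted p = 0.992). Col18a1 had 23.1, 24.5 and 4.81 FPKM in N1het stenosis XCT790, 14.1, 12.1 and 17.99 in N1het stenosis, 6.35, 22.2, 6.57, 9.496 and 5.05 in N1het healthy XCT790, 4.48 to 14.4 with a median of 7.06 in N1het healthy, and 7.28, 6.98, 11.7 and 41.9 in WT. WT 4 stood above the other WT libraries at 41.9 FPKM, and it was also the library highest in smooth muscle markers, whose part was not tested. Set against WT, N1het healthy was at -0.73 ± 0.49 (SE; limma adjusted p = 0.756) on the log2 scale, and the difference over both agents was 0.79 ± 0.38 (limma adjusted p = 0.445).

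Among transmembrane collagens, which sit in the cell membrane by their amino ends, only Col23a1 was tested. It had 12.6, 14.96 and 7.28 FPKM in N1het stenosis XCT790, 9.09, 3.33 and 7.16 in N1het stenosis, 9.15, 10.8, 6.24, 4.89 and 6.21 in N1het healthy XCT790, 8.89 to 19.4 with a median of 9.65 in N1het healthy, and 15.98, 9.24, 8.03 and 1.07 in WT. XCT790 libraries were above solvent libraries in stenosis (0.78 ± 0.56 on the log2 scale) and below them in healthy valves (-0.60 ± 0.41), each with overlap, and N1het healthy differed from WT by 0.72 ± 0.44 (limma adjusted p = 0.734). The interaction of 1.38 ± 0.69 (SE) was the largest of the 31 collagens and did not pass (limma adjusted p = 1). Col13a1, a transmembrane chain of cell junctions, had 0.237, 0.147 and 0 FPKM in N1het stenosis XCT790, 0, 0.245 and 0.4298 in N1het stenosis, 0.891, 1.19, 0, 1.27 and 0.282 in N1het healthy XCT790, 0.0596 to 0.875 with a median of 0.18997 in N1het healthy, and 1.753, 0, 0.923 and 0.464 in WT. Col7a1, the anchoring fibril collagen of skin, had 0.133, 0.217 and 0.523 FPKM in N1het stenosis XCT790, 0.2798, 0.776 and 0.195 in N1het stenosis, 0.428, 0.1799, 0, 0.0272 and 0.145 in N1het healthy XCT790, 0 to 0.591 with a median of 0.1403 in N1het healthy, and 0.105, 0, 0.02202 and 0.0117 in WT. Col28a1, in no class, had 0.775, 0.0461 and 0.0418 FPKM in N1het stenosis XCT790, 0.0676, 0.645 and 0 in N1het stenosis, 0.0411, 0.0729, 0, 1.95 and 0 in N1het healthy XCT790, 0 to 0.574 with a median of 0.0631 in N1het healthy, and 0, 0, 0 and 0.146 in WT. Each of these 3 stayed at or below 1.95 FPKM in every library.

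The balance between chains was compared as log2 ratios of FPKM. Of 6 ratios compared in 6 contrasts by a two-sided exact permutation test, 1 of 36 passed after adjustment, the ratio of Col8a1 to Col1a1 in stenotic against healthy N1het valves over both agents. These 2 genes are not chains of one trimer. In the same libraries their log2 differences leaned in opposite directions (0.83 and -0.67), so the ratio is no separate support for either. The log2 ratio was -3.21, -1.29 and -1.84 in N1het stenosis XCT790, -1.87, -1.83 and -1.30 in N1het stenosis, -3.99, -3.49, -2.38, -2.40 and -3.71 in N1het healthy XCT790, -4.30 to -3.17 in the 6 N1het healthy libraries, and -5.02, -3.52, -2.17 and -4.92 in WT. In 5 of 6 stenotic libraries it lay above all 11 healthy N1het libraries, and N1het stenosis XCT790 1 lay among them. It averaged -1.89 ± 0.70 in stenotic (SD, n = 6) and -3.45 ± 0.60 in healthy N1het valves (n = 11), a difference of 1.56 (exact permutation p = 0.000566, adjusted p over 36 tests = 0.0204).

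Without the deep libraries the difference was 1.36 (exact permutation p = 0.0139, adjusted p = 0.257), so the call did not hold there. Without N1het stenosis 3 or without N1het stenosis XCT790 2 the adjusted p was 0.0577, with a difference of 1.44 each. N1het stenosis alone (-1.67 ± 0.32, SD, n = 3) lay above N1het healthy (-3.66 ± 0.37, n = 6) by 1.99 without overlap, with an exact permutation p of 0.0119, the smallest this design allows, and an adjusted p of 0.214. With XCT790 the ratio did not pass in healthy (difference 0.47, adjusted p = 0.926) or stenotic valves (-0.44, adjusted p = 0.967; 3 against 3 libraries cannot go below an exact p of 0.10).

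**Figure D4:**
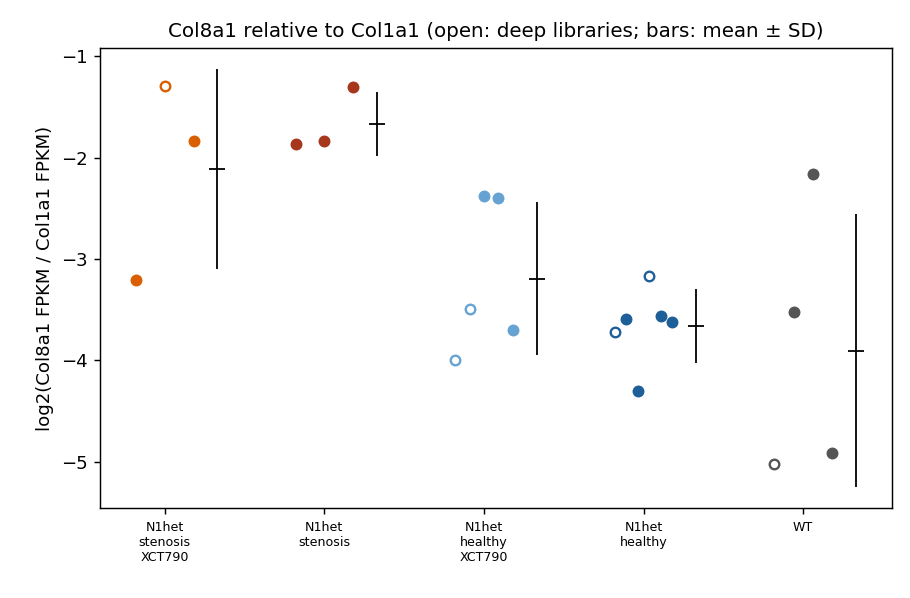
Log2 of the FPKM of Col8a1 over that of Col1a1 in each library (points, open for the deep libraries) with the mean ± SD of each group. The 3 N1het stenosis libraries lie between -1.87 and -1.30, above the 6 N1het healthy libraries at -4.30 to -3.17.

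The other ratios did not pass. Col1a1 to Col1a2, which pair 2 to 1 in the common type I trimer, had a log2 ratio of 0.67 ± 0.27 in stenotic (SD, n = 6) and 0.91 ± 0.16 in healthy N1het valves (n = 11), a difference of -0.24 (exact permutation p = 0.0281, adjusted p = 0.337). Col3a1 to Col1a1 differed by 0.40 (adjusted p = 0.768), Col5a1 to Col1a1 by 0.02, Col4a1 to Col4a2 by -0.18 and Col6a3 to Col6a1, with its row of 413 bases, by -0.10 (adjusted p = 0.967 for each) by the same exact test. The 250 bases before the start sites of the 3 genes whose FPKM was divided by that of Col1a1 are shown, from RefSeq. Col1a2, by which Col1a1 was divided, is not shown. The capitals mark the motifs searched on either strand, which were CCAAT (the CCAAT box), the GC box GGGCGG and the TATA box TATAAA. No marked motif overlaps another. All 3 are GRCm38.p6, read 5′ to 3′ on the gene's strand: Col8a1 at chr16:57754738-57754987 (minus), Col3a1 at chr1:45311288-45311537 (plus) and Col5a1 at chr2:27886175-27886424 (plus).
Col8a1: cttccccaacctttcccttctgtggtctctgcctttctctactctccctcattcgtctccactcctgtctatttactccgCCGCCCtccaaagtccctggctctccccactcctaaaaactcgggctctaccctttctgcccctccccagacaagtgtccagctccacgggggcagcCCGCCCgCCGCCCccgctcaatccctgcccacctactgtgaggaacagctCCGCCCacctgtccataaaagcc
Col3a1: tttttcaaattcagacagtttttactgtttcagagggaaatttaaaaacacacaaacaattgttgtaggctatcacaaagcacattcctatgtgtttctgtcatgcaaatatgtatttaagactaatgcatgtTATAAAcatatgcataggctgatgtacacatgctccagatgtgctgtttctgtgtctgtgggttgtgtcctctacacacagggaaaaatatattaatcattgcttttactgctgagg
Col5a1: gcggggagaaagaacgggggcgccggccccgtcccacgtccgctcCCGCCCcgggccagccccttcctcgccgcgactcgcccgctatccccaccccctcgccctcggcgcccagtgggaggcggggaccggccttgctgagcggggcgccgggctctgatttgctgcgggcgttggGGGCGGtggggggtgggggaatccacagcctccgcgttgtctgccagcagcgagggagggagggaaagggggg

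The Col8a1 window held 4 GGGCGG boxes, all on the other strand, and neither CCAAT nor TATAAA. The Col3a1 window held 1 TATAAA and the Col5a1 window 2 GGGCGG, 1 on each strand. Among 36 entries of 33 matched collagen genes, GGGCGG stood in 55.6%, CCAAT in 33.3% and TATAAA in 13.9% of the 250-base windows, beside 32.7%, 33.8% and 12.4% of 32851 entries of all genes. A match is a run of letters, and nothing is known here of any factor at it.

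Pairs of collagen chains, not all of them from one trimer, followed each other over the 21 libraries to very different degrees. The permutations ran over all 21 libraries regardless of group and depth. Their p therefore cannot separate a relation within groups from differences between groups or between deep and other libraries. On log2(FPKM + 1), Pearson's r of Col1a1 and Col1a2 was 0.91 and Spearman's rho 0.83 (permutation p = 1e-05, the smallest that 100000 permutations give, and 2e-05, with 8e-05 and 0.00016 adjusted over 8 pairs). Pearson's r was 0.83 without N1het healthy 4 and N1het healthy XCT790 1, 0.72 in the 15 other libraries and 0.96 in the 6 deep ones. Col1a1 with Col3a1 gave 0.62 and 0.65 (permutation p = 0.00218 and 0.00217, adjusted 0.00581 and 0.00868), 0.55 without the 2 farthest libraries, 0.53 in the 15 other libraries and 0.92 in the deep ones. Col4a1 with Col4a2 gave 0.56 and 0.60 (permutation p = 0.00766 and 0.00503, adjusted 0.0153 and 0.0134), 0.55 without N1het stenosis 2 and N1het healthy 1, 0.64 in the 15 other libraries and 0.53 in the deep ones.

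Col5a1 and Col5a2 had an r of 0.65 (permutation p = 0.00142, adjusted 0.00568), but a rho of 0.38 (permutation p = 0.0923, adjusted 0.185). The r was 0.31 without N1het healthy 4 and 1 and 0.09 in the 15 other libraries, so the relation rests on those samples. Col6a1 gave an r of 0.20 with Col6a2 and with Col6a3 (adjusted permutation p = 0.448 for both) and a rho of 0.19 and 0.20 (adjusted 0.53 for both), with the short row of Col6a1 noted above. Without the 2 farthest libraries the r was 0.18 and 0.16. Col2a1 gave an r of 0.03 with Col9a1 and 0.21 with Col11a1 (adjusted permutation p = 0.908 and 0.448), 2 chains of collagens that join it in cartilage fibrils. Their rho was 0.17 and 0.05 (adjusted 0.53 and 0.825), and the r was 0.26 and 0.07 without WT 4 and N1het healthy 6. Col9a1 had 1.17, 3.13 and 3.79 FPKM in N1het stenosis XCT790, 6.21, 1.11 and 6.303 in N1het stenosis, 3.54, 4.305, 3.47, 5.43 and 2.22 in N1het healthy XCT790, 1.23 to 13.5 with a median of 2.499 in N1het healthy, and 0.981, 1.34, 3.9997 and 4.06 in WT. Col11a1, under the filter, had 0.253, 0.474 and 0.54002 FPKM in N1het stenosis XCT790, 0.719, 1.47 and 1.62 in N1het stenosis, 2.22, 1.17, 1.08, 0.566 and 0.0898 in N1het healthy XCT790, 0.329 to 1.697 with a median of 1.17 in N1het healthy, and 0.621, 0.663, 0.707 and 0.849 in WT. In both genes stenotic and healthy N1het libraries overlapped.

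**Figure D5:**
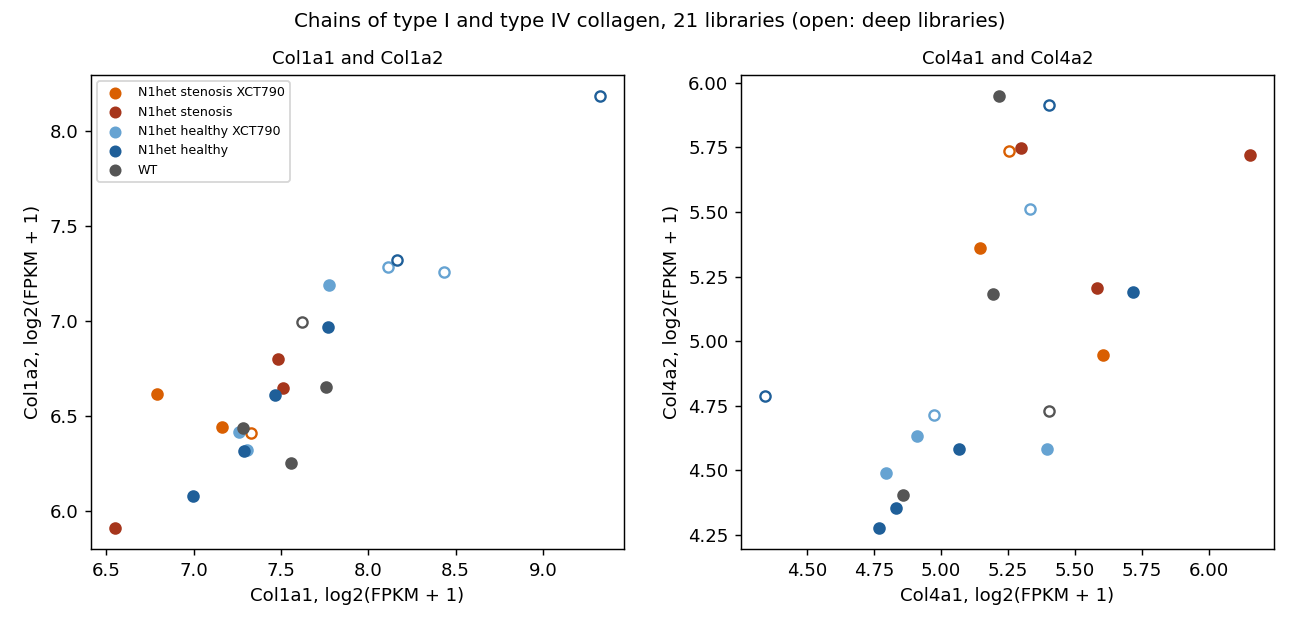
Log2(FPKM + 1) of Col1a1 against Col1a2 and of Col4a1 against Col4a2 in the 21 libraries (points, coloured by group, open for the deep libraries). The type I chains follow one line with an r of 0.91, led by N1het healthy 4 at the top right, and the type IV chains scatter more, with an r of 0.56.

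The genes that make, fold, trim, cross-link, bind and cut collagen were taken from a list of 60, of which 53 were listed and 50 tested. For stenotic against healthy N1het valves over both agents 2 fell and 0 rose, and at unadjusted p 9 were lower and 0 higher, beside the shares of all genes given above. Both that fell are small proteoglycans that bind type I fibrils and space them, decorin (Dcn) and lumican (Lum), which are also in the fibroblast marker list. Dcn was at 2828, 3503 and 2909 FPKM in N1het stenosis XCT790, 3120.2, 2580.4 and 3139 in N1het stenosis, 5009.6, 4358, 4888, 4801 and 4151 in N1het healthy XCT790, 3639.7 to 5373 with a median of 4972 in N1het healthy, and 3946, 4697, 4406 and 3367 in WT. All 6 stenotic libraries lay below all 11 healthy N1het ones, and the log2 difference was -0.64 ± 0.11 (SE; limma adjusted p = 0.0142). It was as large without the deep libraries (-0.64), where it did not pass (limma adjusted p = 0.159), and without N1het stenosis 3 the adjusted p was 0.0591.

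Lum had 472, 715 and 587 FPKM in N1het stenosis XCT790, 499.7, 524 and 676 in N1het stenosis, 972, 858, 909, 894 and 807 in N1het healthy XCT790, 649 to 1243 with a median of 835 in N1het healthy, and 657, 706, 775 and 735 in WT. Stenotic and healthy N1het libraries overlapped between 649 and 715 FPKM. Its log2 difference was -0.60 ± 0.13 (SE; limma adjusted p = 0.0491), close to the threshold. It lost the call in 13 of the 17 fits that left out 1 library (limma adjusted p from 0.0267 to 0.131 over the 17) and under 5 of 10 other settings, among them pseudocount 0.1 (limma adjusted p = 0.0526) and the libraries other than the deep ones (limma adjusted p = 0.189). For N1het stenosis against N1het healthy alone 0 of the 50 were called and 6 were at unadjusted p, 1 higher and 5 lower. Of all genes 0.0334% were called and 9.6% were at unadjusted p (4.59% higher, 5.01% lower) in this contrast, and voom also called 0 of the 50. There Dcn was at -0.68 ± 0.15 (limma adjusted p = 0.126) and the collagen receptor integrin α11 (Itga11) at -1.57 ± 0.37 (limma adjusted p = 0.136). Itga11 had 4.11, 6.096 and 11.1 FPKM in N1het stenosis XCT790, 4.77, 2.83 and 2.29 in N1het stenosis, 13.02, 8.73, 8.43, 12.04 and 9.75 in N1het healthy XCT790, 6.74 to 16.5 with a median of 12.4 in N1het healthy, and 14.5, 7.38, 4.39 and 7.44 in WT. N1het stenosis lay below N1het healthy without overlap, in a contrast where 5.46% of all tested genes had groups without overlap. Over both agents the log2 difference of Itga11 was -1.07 ± 0.26 (limma adjusted p = 0.0769).

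By role, 0 of 6 tested chaperone and export genes and 0 of 5 tested propeptide-processing genes were called over both agents, and 7 of the second kind were listed. All 11 tested were negative, with medians of -0.19 and -0.35, though Ppib was at 0.0515 when N1het stenosis 1 was left out. The chaperone Ppib, which turns proline bonds in the folding chain, had 204, 161 and 171 FPKM in N1het stenosis XCT790, 127, 218 and 218 in N1het stenosis, 195, 172, 213, 121 and 167 in N1het healthy XCT790, 142 to 298 with a median of 224 in N1het healthy, and 85.3, 223, 134 and 132 in WT. Creb3l1, a transcription factor for collagen secretion, had 38.7, 24.9 and 5.303 FPKM in N1het stenosis XCT790, 10.4, 21.7 and 19.7 in N1het stenosis, 23.8, 38.3, 16.5, 22.5 and 19.1 in N1het healthy XCT790, 16.8 to 48.2 with a median of 25.8 in N1het healthy, and 23.4, 13.3, 16.05 and 21.7 in WT. Stenotic and healthy N1het libraries overlapped in both genes, with log2 differences of -0.08 ± 0.20 and -0.47 ± 0.32 (SE; limma adjusted p = 0.927 and 0.614). Pcolce, which speeds the trimming of the carboxyl propeptide, had 57.6, 47.7 and 31.8 FPKM in N1het stenosis XCT790, 32.95, 38.2 and 41.4 in N1het stenosis, 63.8, 67.2, 40.3, 74.9 and 49.8 in N1het healthy XCT790, 30.6 to 147 with a median of 49.2 in N1het healthy, and 39.4, 45.6, 27.6 and 45.3 in WT, a log2 difference of -0.47 ± 0.25 (limma adjusted p = 0.477).

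Of 13 hydroxylases and glycosyltransferases 0 were called, with a median of -0.25. The prolyl hydroxylase subunit P4hb had 170.3, 132 and 127 FPKM in N1het stenosis XCT790, 157, 113 and 132 in N1het stenosis, 135, 144, 139.9, 159 and 149 in N1het healthy XCT790, 119 to 199 with a median of 150 in N1het healthy, and 142, 146, 159.7 and 133 in WT, a log2 difference of -0.11 ± 0.13 (SE; limma adjusted p = 0.804). The collagen galactosyltransferase Glt25d2 had 7.36, 9.55 and 0.0482 FPKM in N1het stenosis XCT790, 13.4, 8.56 and 0.986 in N1het stenosis, 11.6, 8.27, 7.503, 12.01 and 4.35 in N1het healthy XCT790, 7.59 to 18.1 with a median of 10.7 in N1het healthy, and 16.3, 9.03, 10.2 and 4.198 in WT. Its groups overlapped, and the log2 difference was -0.99 ± 0.45 (limma adjusted p = 0.392).

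Of 8 receptors 0 were called, with a median of -0.08, and Itgb1, the β1 subunit of the collagen-binding integrins, had 185, 148 and 150.2 FPKM in N1het stenosis XCT790, 202, 171 and 196 in N1het stenosis, 142, 161, 177, 152 and 130 in N1het healthy XCT790, 111 to 206 with a median of 147 in N1het healthy, and 139, 164, 169.5 and 167 in WT, a log2 difference of 0.22 ± 0.13 (limma adjusted p = 0.542). Of 5 tested collagen-degrading proteases 0 were called and all were negative, with a median of -0.41. The gelatinase Mmp2 was at 108, 155 and 146 FPKM in N1het stenosis XCT790, 177, 190.2 and 205 in N1het stenosis, 391, 273, 223, 274 and 179 in N1het healthy XCT790, 194 to 574 with a median of 243 in N1het healthy, and 232, 249.8, 141 and 165 in WT, a log2 difference over both agents of -0.74 ± 0.21 (SE; limma adjusted p = 0.148).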

How the data were processed

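RNA of mouse aortic valves was measured in 21 libraries. Per the submitters' processing notes, FastQC, HISAT2, SAMtools and Picard were used with mm9. Which counter, annotation and strand setting made the table is not stated in these notes or labels. The FPKM values were computed by the authors and used as deposited. The authors also deposited 0 or 1 marks for their own comparisons, in columns with no unit, and 5 columns of group means, which were not used.

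From the FPKM, log2(FPKM + 1) was tested with limma 3.58.1 (trend, robust, with statmod 1.5.0, in R 4.3.3) over 14966 genes with a mean FPKM of at least 1. The 5 group means were fitted on all 21 libraries, with Benjamini-Hochberg adjustment over all tested genes in each contrast and a threshold of 0.05. The script was tested on simulated data. Ratios of chains used exact two-sided permutation tests and correlations 100000 permutations (Python 3.11.15, numpy 2.4.6, pandas 2.3.3, scipy 1.17.1; figures with matplotlib 3.10.9). Whole reads recovered from the FPKM steps gave the depth of 8417033 to 27265905 reads. Each gene's step was chosen so that its nonzero values were whole within 0.01 reads. It was found for 100% of nonzero values, which is no separate check for genes seen in few libraries. The planned count test could not be used on FPKM, so limma voom on the recovered reads was added after seeing the data. At these depths genes with few reads are imprecise, and Col6a1 has 2 to 67 reads per library.

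Values per library are given for the collagens with the smallest p in each contrast (5 in the stenosis and N1het healthy against WT contrasts, 3 in the others), the 2 of highest level in each class, those in the chain pairs and ratios, and, for each part of the processing list, the gene of smallest p in N1het stenosis against N1het healthy and the gene of highest level. Lum was added because it was called, after its values were seen. The members and all gene lists were chosen with earlier results of these data known. The ratios and pairs were drawn from these members, so they are not independent of those results. Alternatives were another pseudocount, other filters, scaling, fewer groups, a replicate block, a covariate (heart muscle marker level or deep libraries), the agent label, other libraries left out and voom.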

Additional observations from a re-analysis of the deposited data

Results flagged for a closer look

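Among 48 groups of 4 to 6 libraries of 16 collagen genes, 4 had a library far from the others by Dixon's test, and chance alone marks about 1 group in 20. Col2a1 was at 13.7 FPKM in N1het healthy 6, and at 26.1 FPKM in WT 4 while the other 3 WT libraries were at 0. Acan was at 2.12 FPKM in N1het healthy 6 and 1.24 in WT 4, and Lect1, another cartilage gene, at 1.53 FPKM in N1het healthy 6 and 6.97 in WT 4. These 2 genes held little of the sum of the 6 listed cartilage-type markers. That sum was 139 to 213 FPKM in the WT libraries and 248 to 486 FPKM in the N1het healthy libraries. Col12a1 was at 6.96 FPKM in WT 4, against 21.4 to 26.6 FPKM in the other WT libraries. Col4a2 was at 44.7 FPKM in N1het healthy XCT790 2, against 21.4 to 25.2 FPKM in the other N1het healthy XCT790 libraries. The summed smooth muscle markers were at 1688 FPKM in N1het healthy XCT790 2, against 170.5 to 623 in the other N1het healthy XCT790 libraries, and at 3428 FPKM in WT 4, against 173 to 602 in the other WT libraries, and their part in these values was not tested. No difference of XCT790's effect between stenotic and healthy valves passed for a collagen gene.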

How the results depend on the processing

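Of the comparison results, 446 were scored as the same under an alternative, 19 moved and 3 were weaker. A median was scored as the same within 0.366 of its main value, even where its sign turned. That width is the SD of the median log2 collagen level between libraries of a group. A count was scored as the same when it was equal or close to the main count. Of the single genes, 1077 kept their direction and side of the threshold, 20 were weaker and 2 reversed. In each setting run, 0 collagen genes were called, also with the heart muscle marker level or the deep libraries as a covariate. Without the deep libraries the median collagen difference of N1het healthy from WT was -0.13, Col3a1 over both agents was at 0.031, the number of called processing genes was 0, the Col8a1 to Col1a1 ratio differed by 1.36 (weaker) and 0 ratios were called. The number of called processing genes over both agents was 1 under a pseudocount of 0.1, no filter, only the compared groups, and the replicate block, and 0 to 2 with 1 library left out. Ppib over both agents was at 0.0515 without N1het stenosis 1 and ranged from -0.14 to 0.0515 over the libraries left out. The ratio of Col8a1 to Col1a1 ranged from 1.44 to 1.82 in the same way. The cause of these changes was not tested. Deviations of same-numbered libraries of different groups correlated at -0.11 to 0.13 (34 pairs, median 0.013, 3 over 0.1). Those of other-numbered libraries of different groups correlated at -0.18 to 0.24 (139 pairs, median -0.005, 11 over 0.1). These values cannot tell whether numbers pair samples, and the main fit used no replicate block. With the replicate block the collagen medians were -0.23 for N1het stenosis against N1het healthy and -0.34 over both agents, with 0 called. The planned count test was not run. Groups by the agent label were fitted only for N1het healthy against WT and XCT790 in healthy valves, with medians of 0.28 and -0.15. By that label every stenotic library had XCT790, so no stenotic solvent group was left. Few reads limit both untested collagens and tested ones such as Col2a1 (median of 6 reads per library), Col6a1 (10) and Col20a1 (35).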
